A study of Mus musculus with 18 samples.

Results

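The spleen libraries of untreated and of LPPC/mp/CD152 mice fell into a lymphocyte-rich and a macrophage-like class, and these classes are compared here. Members were chosen by measured expression of Cd3e, a subunit of the T cell receptor complex. Libraries over 40 FPKM (fragments mapped to a gene, scaled by its length and by the depth of the library) were called lymphocyte-rich and those under 40 FPKM macrophage-like. The lymphocyte-rich class held 4 libraries (LPPC/mp/CD152 replicates 2 and 5, and Naive replicates 1 and 2) and the macrophage-like class 5 (LPPC/mp/CD152 replicates 1, 3, 4 and 6, and Naive replicate 3). They are written CD152 2, N 1 and so on, and together they are 9 of the 18 libraries of the series. The 9 others, 6 after LPPC/mp/CD28 and 3 after LPPC/mp, serve only as context.

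The LPPC/mp/CD152 mice received LPPC (a lipo-PEG-PEI complex) that carried dendritic cell membrane proteins, by vein, and were then modulated once or more with the same complex carrying an antibody to CD152, which is CTLA4. The Naive mice had no treatment. Labels do not tell which LPPC/mp/CD152 libraries had 1 modulation and which had 2. Every library is labelled as splenocytes of the spleen, strain C57BL/6J, female, from mice 4 to 6 weeks old, while the attached protocol fields describe melanoma tumours. The study's methods name BALB/c besides C57BL/6 mice and describe splenocyte RNA. No source used here states that libraries came from separate animals, so p-values measure only the spread between libraries.

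T cells recognise peptides through a receptor whose signal runs through the CD3 subunits, and B cells through an immunoglobulin receptor that signals through CD79A and CD79B. Both populate the white pulp of the spleen. Macrophages of the spleen depend on the receptor for colony-stimulating factor, encoded by Csf1r, and those of the red pulp clear aged erythrocytes and recycle their iron. Lysozyme, encoded by Lyz2 in mice, is a product of macrophages, monocytes and neutrophils.

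Aligned sequence ranged from 5.21 to 6.45 gigabases in lymphocyte-rich libraries and from 6.24 to 7.92 gigabases in macrophage-like libraries. The files give no counts per gene, so the depth behind a single value is unknown. Comparisons took in the 11436 protein-coding genes that averaged 0.5 FPKM or more across the 18 libraries, on the log2(FPKM + 0.5) scale, which understates differences of low genes. Since Cd3e of these same libraries divided them, every difference between the classes is a description without a test. In bulk RNA, fewer cells of a type and less RNA per cell cannot be told apart.

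Some libraries went against their labels, and the split followed the classes. Eif2s3y, a translation factor gene on the Y chromosome, was listed at 0 in the 4 lymphocyte-rich libraries, against 41.5, 40.3, 40.1 and 36.5 FPKM in CD152 1, 3, 4 and 6 and 43.02 FPKM in N 3. Ddx3y and Kdm5d were likewise at 0 in these 4, against 13.7 to 15.1 FPKM for Ddx3y and 3.08 to 4.89 FPKM for Kdm5d in macrophage-like libraries. Uty was at 0 to 0.002 FPKM in lymphocyte-rich libraries and 3.47 to 4.86 FPKM in macrophage-like libraries. Xist, the RNA that coats an inactive X chromosome in female cells, was at 59.9 and 58.4 FPKM in CD152 2 and 5 and 55.4 and 48.1 FPKM in N 1 and N 2, against 1.49, 2.14, 2.04 and 2.69 FPKM in CD152 1, 3, 4 and 6 and 0.286 FPKM in N 3. Y-linked transcripts were thus present in all 5 macrophage-like libraries although every mouse is labelled female, and in N 3 Xist was close to 0. They were present in the context libraries as well, where Eif2s3y was at 31.01 to 36.8 FPKM.

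A further set of genes set N 1 apart from the 8 other libraries. These genes were chosen after their values were seen. H2-Ea-ps, the gene of the MHC class II E alpha chain, which mice of the C57BL/6 strain do not transcribe because of a deletion, was at 984 and 972 FPKM in CD152 2 and 5 and 0.0671 and 1070.1 FPKM in N 1 and N 2, against 158, 226, 240.5 and 334 FPKM in CD152 1, 3, 4 and 6 and 25.98 FPKM in N 3. Klra8, the activating natural killer receptor Ly49H of C57BL/6 mice, was at 10.4 FPKM in N 1 and at most 0.0166 FPKM in the other 8. Trim12a, of the TRIM family, was at 34.8 FPKM in N 1 and at most 0.0441 FPKM elsewhere. H2-K1, a classical MHC class I heavy chain, was at 134 and 135 FPKM in CD152 2 and 5 and 913 and 143 FPKM in N 1 and N 2, against 36.4 to 58.5 FPKM in macrophage-like libraries. All are labelled with a single strain, and whether reads of another strain align less fully to the mm10 reference was not tested.

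**Figure D1:**
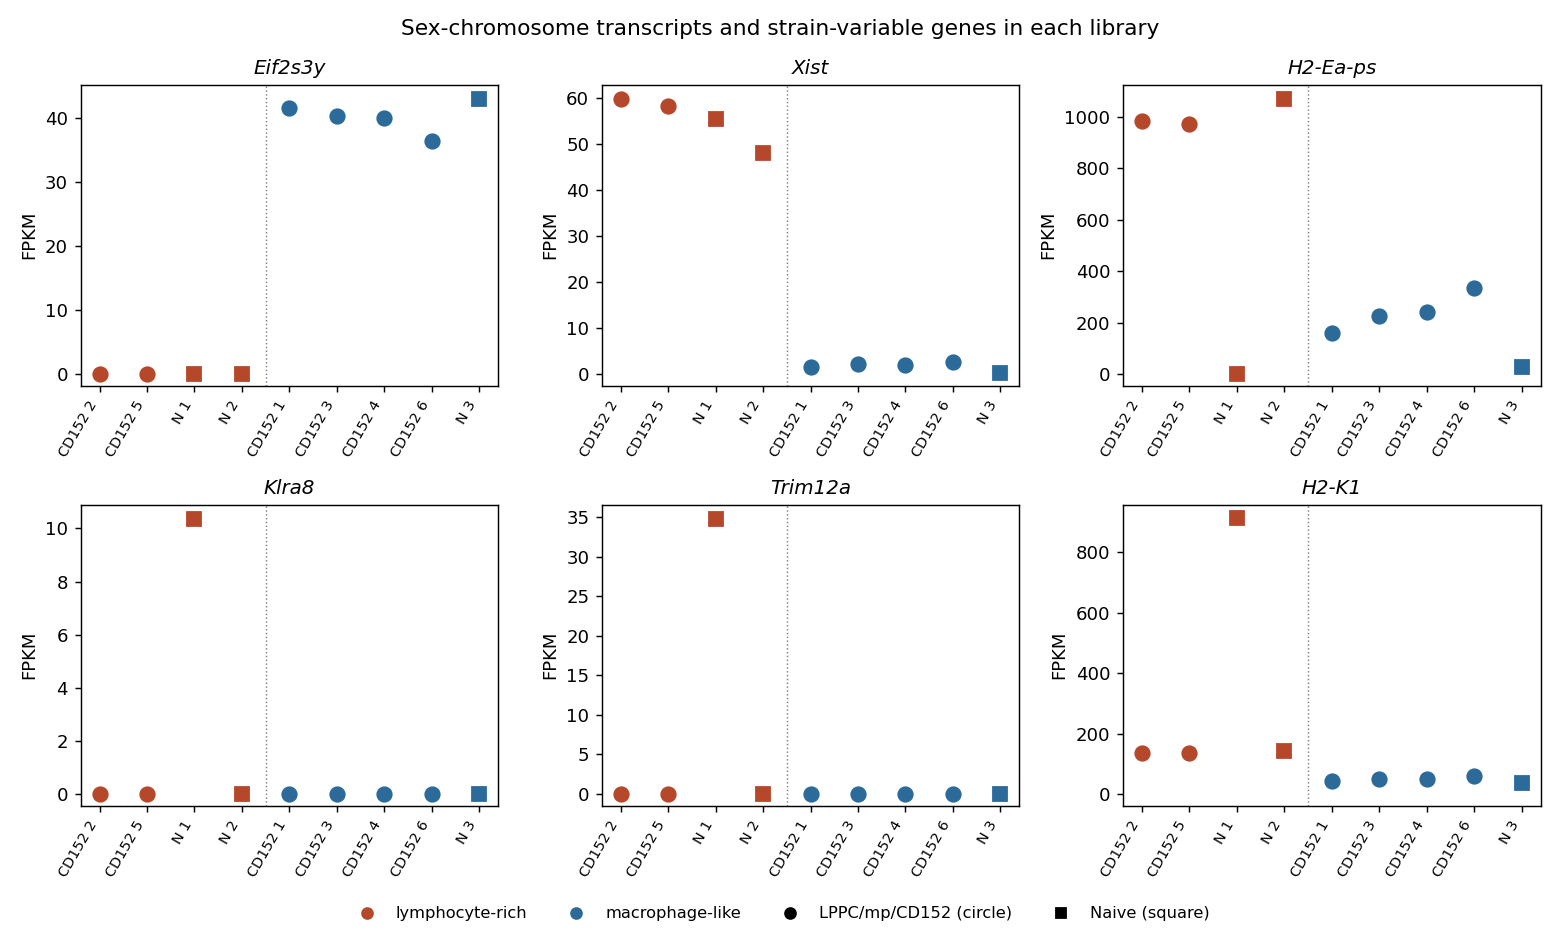
FPKM (linear axes) of 6 genes in each of the 9 libraries, circles for LPPC/mp/CD152 and squares for Naive, with lymphocyte-rich libraries left of the dotted line and macrophage-like libraries right of it. Eif2s3y and Xist divide the classes, while H2-Ea-ps, Klra8, Trim12a and H2-K1 set N 1 apart from the others.

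Cd3e divided the classes by the cut itself, and Cd79a, Lyz2 and Csf1r did not overlap between them. Cd3e was at 55.5 and 55.8 FPKM in CD152 2 and 5 and 68.8 and 59.1 FPKM in N 1 and N 2, against 2.76, 4.02, 4.51 and 5.58 FPKM in CD152 1, 3, 4 and 6 and 0.843 FPKM in N 3. The library just inside the limit stood at 55.5 FPKM and the one just outside at 5.58 FPKM, so none lay near 40 FPKM. Cd79a was at 371 and 368 FPKM in CD152 2 and 5 and 518 and 403 FPKM in N 1 and N 2, against 47.5, 71.8, 80.1 and 104 FPKM in CD152 1, 3, 4 and 6 and 9.60 FPKM in N 3. Its lowest lymphocyte-rich value was above its highest macrophage-like value, and N 3 had the least of both genes.

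The myeloid markers ran the other way. Lyz2 was at 274 and 267 FPKM in CD152 2 and 5 and 307 and 272 FPKM in N 1 and N 2, against 2743, 2654, 2661 and 2589 FPKM in CD152 1, 3, 4 and 6 and 2888 FPKM in N 3. Csf1r was at 39.7 and 39.2 FPKM in CD152 2 and 5 and 53.2 and 40.2 FPKM in N 1 and N 2, against 183, 178, 177 and 177 FPKM in CD152 1, 3, 4 and 6 and 193 FPKM in N 3. The ratio of class medians (macrophage-like over lymphocyte-rich) was 9.74 for Lyz2 and 4.45 for Csf1r, while the inverse ratio (lymphocyte-rich over macrophage-like) was 14.3 for Cd3e and 5.39 for Cd79a. Within the macrophage-like class Lyz2 and Csf1r were highest in N 3, the library with the least Cd3e. The labelled tissue thus bore lymphocyte markers at high levels in 4 libraries, and in N 3 its defining T cell genes were near 0.

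**Figure D2:**
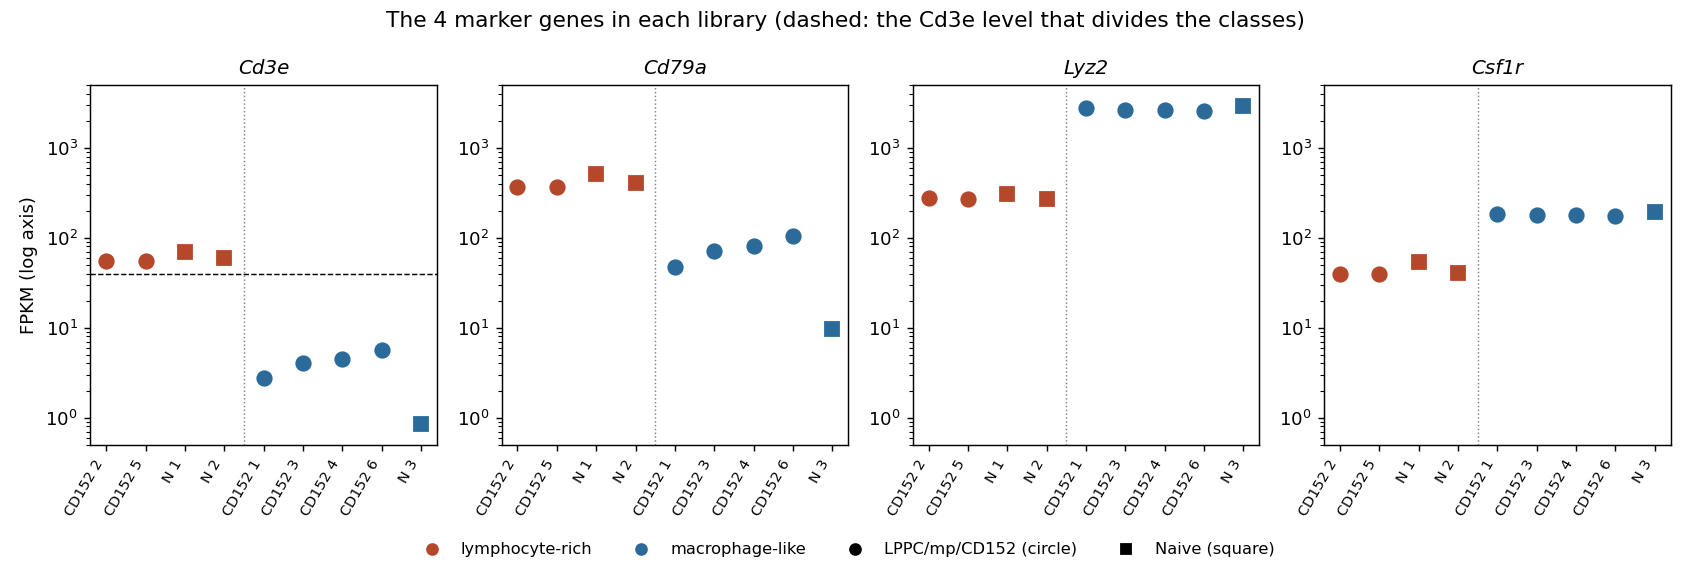
FPKM on a log axis of Cd3e, Cd79a, Lyz2 and Csf1r in each of the 9 libraries, circles for LPPC/mp/CD152 and squares for Naive, with lymphocyte-rich libraries at the left. The dashed line marks 40 FPKM of Cd3e, which no library approaches: the nearest values are 55.5 and 5.58 FPKM.

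The 250 bases before the start of 5 genes whose levels divide the classes are shown because each marks a cell type by which the classes differ (RefSeq, GRCm38.p6). They are Cd3e of T cells, Cd79a of B cells, Lyz2 and Spp1 of macrophages, and Alas2, the first enzyme of heme synthesis in erythroid cells. Capitals mark the core GGAAGT of the ETS family of transcription factors (or its complement ACTTCC) in the first 4, and the GATA family core AGATAA (or TTATCT) in Alas2. Sequences run 5′ to 3′ on the strand of the gene.
Cd3e, chr9:45009612-45009861, minus strand: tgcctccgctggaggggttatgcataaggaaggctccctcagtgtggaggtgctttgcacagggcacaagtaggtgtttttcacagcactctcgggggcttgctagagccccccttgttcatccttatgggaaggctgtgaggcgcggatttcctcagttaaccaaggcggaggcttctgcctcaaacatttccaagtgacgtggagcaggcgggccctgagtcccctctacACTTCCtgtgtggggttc
Cd79a, chr7:24897247-24897496, plus strand: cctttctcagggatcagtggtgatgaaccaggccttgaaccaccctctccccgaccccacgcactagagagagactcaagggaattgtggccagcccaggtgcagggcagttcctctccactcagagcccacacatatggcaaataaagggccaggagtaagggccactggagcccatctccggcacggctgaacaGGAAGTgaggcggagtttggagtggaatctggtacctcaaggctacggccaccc
Lyz2, chr10:117282273-117282522, minus strand: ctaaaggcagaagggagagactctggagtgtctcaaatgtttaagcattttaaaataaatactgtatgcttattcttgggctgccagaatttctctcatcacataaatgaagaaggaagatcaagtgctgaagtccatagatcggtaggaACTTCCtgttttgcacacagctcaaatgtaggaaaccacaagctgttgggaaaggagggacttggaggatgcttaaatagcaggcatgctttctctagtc
Spp1, chr5:104434861-104435110, plus strand: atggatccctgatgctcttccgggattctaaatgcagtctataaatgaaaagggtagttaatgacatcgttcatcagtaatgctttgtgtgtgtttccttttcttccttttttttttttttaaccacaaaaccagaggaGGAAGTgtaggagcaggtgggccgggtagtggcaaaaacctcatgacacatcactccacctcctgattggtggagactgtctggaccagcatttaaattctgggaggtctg
Alas2, chrX:150547167-150547416, plus strand: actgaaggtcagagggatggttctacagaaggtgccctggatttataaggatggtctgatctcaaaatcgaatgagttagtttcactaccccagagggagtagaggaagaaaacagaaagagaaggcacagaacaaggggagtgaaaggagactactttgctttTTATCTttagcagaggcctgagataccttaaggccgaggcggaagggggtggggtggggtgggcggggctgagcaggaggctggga
Of 32851 promoter windows of this length in the same table, 19.7% held GGAAGT and 9.99% held AGATAA on either strand. Each capitalised match was the only one in its window, and in Spp1 it overlapped the PU.1 core GAGGAA. Spp1 has 2 windows in the table, and the more upstream one is printed. These 8 motifs were searched, and the 2 shown were picked after the matches were seen. The others were GAGGAA (23.3% of windows, in Cd3e, Cd79a, Spp1 and Alas2), the EBF1 motif (0.779%, in none of the 5), the E-box CACGTG (6.02%, none), the AP-1 motif TGANTCA (6.75%, none), the GC box GGGCGG (32.7%, in Alas2) and the TATA box TATAAA (12.4%, in Spp1 and Alas2). A match is a description of letters and not a binding site.

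The levels of a pair of ETS factor genes, picked after the matches were seen, are given beside these sequences. Ets1, which is abundant in lymphocytes, was at 162 and 172 FPKM in CD152 2 and 5 and 222 and 172 FPKM in N 1 and N 2, against 6.87, 11.04, 11.99 and 14.7 FPKM in CD152 1, 3, 4 and 6 and 1.37 FPKM in N 3. Spi1, the gene of the ETS factor PU.1 of myeloid and B cells, was at 27.7 and 23.1 FPKM in CD152 2 and 5 and 34.6 and 27.2 FPKM in N 1 and N 2, against 61.3, 64.3, 54.7 and 58.4 FPKM in CD152 1, 3, 4 and 6 and 63 FPKM in N 3. Neither pair of ranges overlapped, and the directions were opposite.

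Differences between the classes ran through much of the transcriptome. Of 11436 genes, 2156 were more than 2-fold higher in lymphocyte-rich libraries (18.9%) and 1883 more than 2-fold higher in macrophage-like libraries (16.5%). The 4 lymphocyte-rich values all lay above the 5 macrophage-like values for 3925 genes (34.3%) and all below them for 4357 (38.1%). Nothing is read from these shares, because the classes were cut by expression. Counts of list members given below are to be read beside these shares. The median difference over all genes (lymphocyte-rich minus macrophage-like) was -0.03 on the log2 scale. Taking hemoglobin genes out of the scaling moved it to 0.22 and the 2-fold counts to 2711 and 1421, and a TPM-like scaling moved it to -0.13.

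Correlation across genes described the same division. Pearson's r of log2(FPKM + 0.5) over the 11436 genes, which are not independent replicates, was 0.993 to 0.994 among CD152 2, CD152 5 and N 2, and 0.908 to 0.909 between N 1 and these 3. Among the macrophage-like libraries it was 0.970 to 0.995, and between classes 0.629 to 0.751. N 2, a Naive library, was thus as close to CD152 2 and 5 as those were to each other.

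T cell genes stood higher in every lymphocyte-rich library than in any macrophage-like one. This held for all 18 members of the T cell list, each more than 2-fold, with a median difference of 3.45 on the log2 scale beside -0.03 over all genes. Cd3e is among these members, so its own separation follows from the cut, and it enters the median and the sum. Over all genes, 34.3% stood higher in every lymphocyte-rich library and 18.9% passed 2-fold toward that class. The summed level of the list was 589.7 to 935 FPKM in lymphocyte-rich libraries and 11.4 to 112 FPKM in macrophage-like libraries. Cd4 of helper cells was at 32.5 and 33.1 FPKM in CD152 2 and 5 and 35.3 and 33.5 FPKM in N 1 and N 2, against 1.73, 2.93, 2.74 and 3.62 FPKM in CD152 1, 3, 4 and 6 and 0.108 FPKM in N 3. Cd8a of cytotoxic cells was at 15.4 to 41.7 against 0.201 to 1.82 FPKM and Lck, the kinase that starts receptor signalling, at 68.8 to 106 against 2.002 to 13.3 FPKM (lymphocyte-rich against macrophage-like). In N 1 Cd8a and Cd8b1 reached 41.7 and 68.8 FPKM, against 15.4 to 16.3 and 22.4 to 24.4 FPKM in the other 3 lymphocyte-rich libraries, whereas Cd4 differed little among the 4.

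B cell genes followed the same order. Of 18 members 17 stood higher in every lymphocyte-rich library, each more than 2-fold, with a list median of 3.49 on the log2 scale. The shares over all genes were 34.3% without overlap and 18.9% past 2-fold. Cd79b was at 318 and 302 FPKM in CD152 2 and 5 and 341 and 294 FPKM in N 1 and N 2, against 35.5, 55.95, 58.9 and 75.4 FPKM in CD152 1, 3, 4 and 6 and 6.54 FPKM in N 3. Cd74, the invariant chain of MHC class II that B cells and other antigen-presenting cells make, was at 2278 to 3472 FPKM in lymphocyte-rich libraries and 203 to 565 FPKM in macrophage-like libraries. Ms4a1, which encodes CD20, was at 165 to 242 against 3.83 to 43.4 FPKM and Fcer2a, the low-affinity IgE receptor of follicular B cells, at 143 to 156 against 2.16 to 23.5 FPKM (lymphocyte-rich against macrophage-like). The exception was Cd72, a B cell surface protein, with 75.9 to 101 FPKM in lymphocyte-rich libraries and 123 to 129.6 FPKM in macrophage-like libraries. Immunoglobulin genes together made up 3.79 to 7.10% of the FPKM of reference genes in lymphocyte-rich libraries and 0.166 to 1.52% in macrophage-like libraries, and T cell receptor genes 0.202 to 0.392% and 0.00380 to 0.0400%.

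Plasma cell genes were divided by library. Jchain, which joins IgM and IgA polymers, was at 657 and 677 FPKM in CD152 2 and 5 and 152 and 733 FPKM in N 1 and N 2, against 96.1, 138, 89.8 and 202 FPKM in CD152 1, 3, 4 and 6 and 15.7 FPKM in N 3. N 1 held less than the 3 other lymphocyte-rich libraries and overlapped with CD152 6. Ighm, the mu heavy chain constant gene, was at 4187 and 4280.4 FPKM in CD152 2 and 5 and 1914 and 4753 FPKM in N 1 and N 2, against 329, 503, 521 and 678 FPKM in CD152 1, 3, 4 and 6 and 105 FPKM in N 3. Of 8 plasma cell genes 5 were more than 2-fold higher in the lymphocyte-rich class, where 18.9% of all genes were. Xbp1, the factor of the secretory programme that macrophages use as well, was at 42.5 to 62.4 against 93.9 to 115 FPKM (lymphocyte-rich against macrophage-like).

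Natural killer and cytotoxic genes were all on the lymphocyte-rich side, 12 of 12 by more than 2-fold, where 18.9% of all genes were. Gzma, a granzyme, was at 60.4 to 67.4 against 2.03 to 22.4 FPKM and Ccl5, a chemokine of cytotoxic lymphocytes, at 55.6 to 82.1 against 1.24 to 11.7 FPKM (lymphocyte-rich against macrophage-like). Klrb1c, the NK1.1 antigen, was at 16.3 FPKM in N 1, against 2.04 to 2.34 FPKM in the 3 others of its class and at most 0.583 FPKM in macrophage-like libraries. Ncr1, the NKp46 receptor, did not separate N 1, with 18.1 and 21.9 FPKM in CD152 2 and 5 and 16.3 and 18.98 FPKM in N 1 and N 2.

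Lymphoid transcription factors were among the most divided genes. Of 15 members 14 did not overlap and stood higher in the lymphocyte-rich class, where 34.3% of all genes did. The list median was 3.89 on the log2 scale. Tcf7, the T cell factor TCF1, was at 84.1 and 85.7 FPKM in CD152 2 and 5 and 185 and 92 FPKM in N 1 and N 2, against 4.47, 6.58, 7.43 and 9.68 FPKM in CD152 1, 3, 4 and 6 and 0.662 FPKM in N 3. Pax5, which holds B cells to their lineage, was at 47.4 to 84.7 against 0.678 to 8.10 FPKM and Ikzf3, the lymphoid factor Aiolos, at 77.1 to 102 against 0.326 to 6.36 FPKM (lymphocyte-rich against macrophage-like). The exception to this was Foxp1, whose values were uneven within both classes (7.18 to 33.7 and 3.84 to 12.1 FPKM).

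Genes that steer lymphocytes between blood and lymphoid tissue were all more than 2-fold higher in the lymphocyte-rich class (8 of 8, beside 18.9% of all genes). S1pr1, the receptor for exit from lymphoid tissue, was at 90.1 and 85.04 FPKM in CD152 2 and 5 and 94.05 and 93.8 FPKM in N 1 and N 2, against 5.40, 7.90, 8.27 and 11.3 FPKM in CD152 1, 3, 4 and 6 and 2.07 FPKM in N 3. Ltb, which encodes lymphotoxin beta, was at 179 to 221 FPKM in lymphocyte-rich libraries and 6.61 to 43.8 FPKM in macrophage-like libraries. No value of a macrophage-like library reached the lowest lymphocyte-rich value for any of these 8 genes.

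Receptor signalling genes were mostly on the lymphocyte-rich side, toward which 18.9% of all genes passed 2-fold. Of the T cell receptor signalling list 9 of 12 members were more than 2-fold higher in lymphocyte-rich libraries, among them Rasgrp1 (30.02 to 40.5 against 0.228 to 1.98 FPKM) and Grap2 (32.1 to 52.97 against 0.155 to 2.27 FPKM), which link the receptor to Ras and to the adaptor SLP76. Lcp2, which encodes SLP76 and is used by myeloid cells too, overlapped at 25.7 to 33.02 and 30.1 to 31.96 FPKM. Of the B cell receptor signalling list 7 of 12 members passed 2-fold, and Btk, the kinase shared with myeloid cells, did not (32.4 to 38.4 against 26.1 to 27.2 FPKM).

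Ctla4, the target of the antibody and an inhibitory receptor of T cells, was low throughout. It was at 5.11 and 5.30 FPKM in CD152 2 and 5 and 3.997 and 4.48 FPKM in N 1 and N 2, against 0.958, 1.004, 1.40 and 1.93 FPKM in CD152 1, 3, 4 and 6 and 0.294 FPKM in N 3. The class ranges did not overlap, and the ratio of class medians (lymphocyte-rich over macrophage-like) was 4.78. For Cd3e, whose ratio follows in part from the cut, it was 14.3. Of the costimulation list 9 of 11 members were more than 2-fold higher in lymphocyte-rich libraries, where 18.9% of all genes were. They included Cd86, a ligand of CTLA4, at 11.98 to 16.7 against 0.492 to 3.18 FPKM, and Cd274, which encodes PD-L1, at 11.9 to 18.04 against 1.48 to 1.98 FPKM. Cd80, the other ligand, was at 1.85 to 2.66 against 0.901 to 1.16 FPKM (lymphocyte-rich against macrophage-like).

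MHC class II genes, which B cells, dendritic cells and some macrophages express, stood with the lymphocytes. All 10 members were more than 2-fold higher in the lymphocyte-rich class, where 18.9% of all genes were, with a list median of 3.18. H2-Ab1 was at 503 and 489 FPKM in CD152 2 and 5 and 1151 and 553 FPKM in N 1 and N 2, against 73.6, 107, 109.8 and 154 FPKM in CD152 1, 3, 4 and 6 and 13.5 FPKM in N 3. Ciita, the activator that switches on this gene family, was at 36.5 to 52.9 against 0.419 to 3.89 FPKM (lymphocyte-rich against macrophage-like). In each macrophage-like library these levels were low beside Lyz2, and N 3 had the lowest value for all 10 genes.

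**Figure D3:**
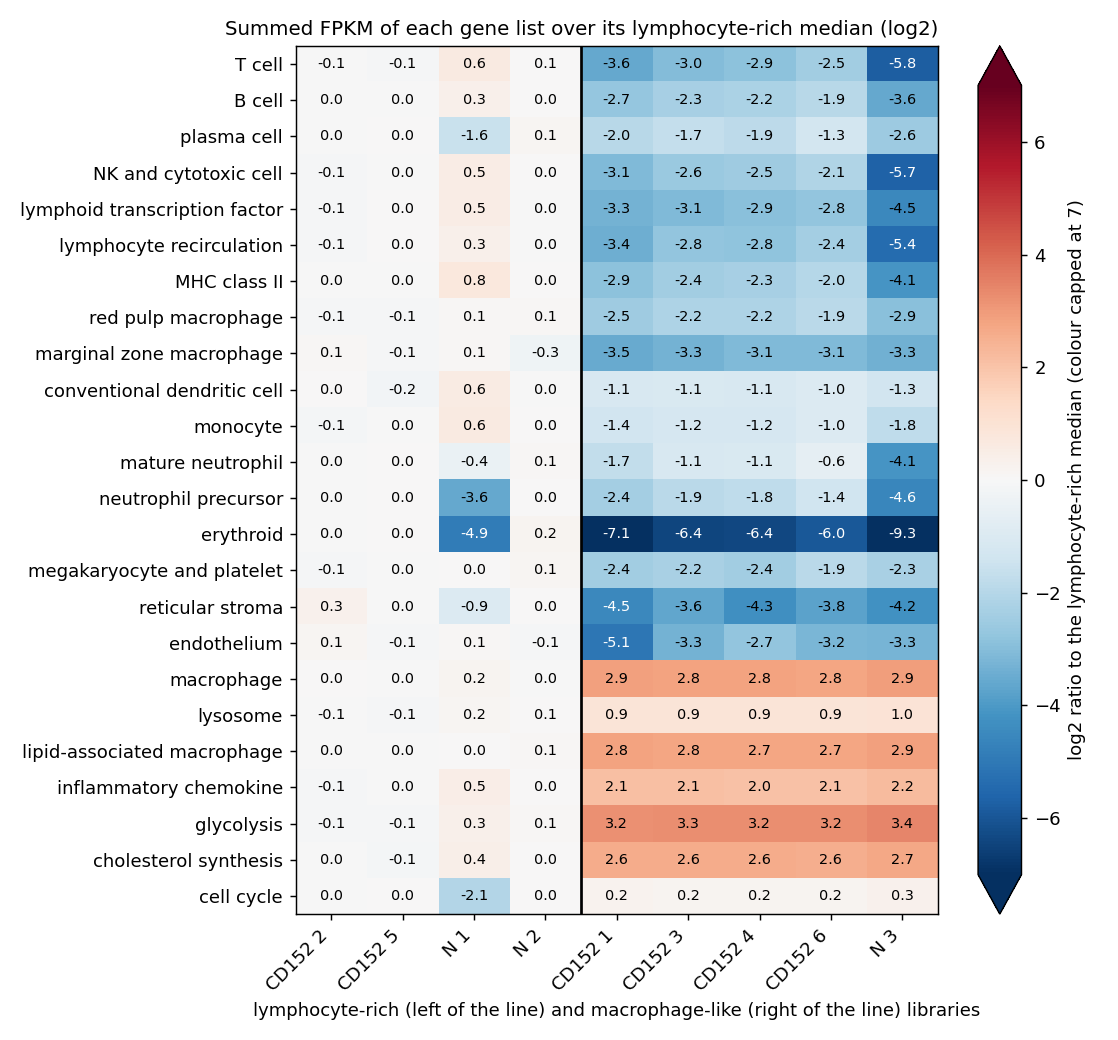
Summed FPKM of 24 gene lists in each of the 9 libraries, as log2 of the ratio to the median of the 4 lymphocyte-rich libraries (colour, capped at 7, and printed values), with lymphocyte-rich libraries left of the line. Lymphoid, tissue macrophage and erythroid lists lie below 0 in all 5 macrophage-like libraries and lowest in N 3 for T cell, B cell and erythroid genes, whereas macrophage, glycolysis and cholesterol lists lie above 0.

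On the other side, general macrophage genes were high in the macrophage-like class. Of 15 members of the macrophage list 10 were more than 2-fold higher there and 3 more than 2-fold higher in the lymphocyte-rich class. The shares over all genes were 16.5% and 18.9%. Cd14, the coreceptor for lipopolysaccharide, was at 4.72 and 5.29 FPKM in CD152 2 and 5 and 4.69 and 5.76 FPKM in N 1 and N 2, against 184, 172, 173 and 172 FPKM in CD152 1, 3, 4 and 6 and 191 FPKM in N 3. Cd68, a glycoprotein of macrophage lysosomes, was at 30.9 to 34.4 FPKM in lymphocyte-rich libraries and 269 to 302 FPKM in macrophage-like libraries, and Msr1, a scavenger receptor, at 0.773 to 1.14 against 29.3 to 35 FPKM (lymphocyte-rich against macrophage-like). Adgre1, which encodes the antigen F4/80, differed less, with 14.7 to 21.3 FPKM in lymphocyte-rich libraries and 29.9 to 31.5 FPKM in macrophage-like libraries.

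Genes of resident tissue macrophages did not follow. Mertk, a receptor for the uptake of dying cells, was at 7.52 and 7.37 FPKM in CD152 2 and 5 and 7.99 and 7.44 FPKM in N 1 and N 2, against 0.574, 0.580, 0.661 and 0.737 FPKM in CD152 1, 3, 4 and 6 and 0.136 FPKM in N 3. Mrc1, the mannose receptor, was at 18.6 and 17.8 FPKM in CD152 2 and 5 and 17.4 and 18.8 FPKM in N 1 and N 2, against 1.19, 1.77, 1.77 and 2.12 FPKM in CD152 1, 3, 4 and 6 and 0.384 FPKM in N 3. Both belong to the macrophage list and were more than 2-fold higher in the lymphocyte-rich class, with no overlap.

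The red pulp macrophage list stood wholly on the lymphocyte-rich side. All 11 members were higher in every lymphocyte-rich library, 10 of them more than 2-fold, with a median of 3.29 on the log2 scale. Over all genes, 34.3% stood higher in every lymphocyte-rich library and 18.9% passed 2-fold. Slc40a1, the iron exporter ferroportin, was at 72.1 and 71.6 FPKM in CD152 2 and 5 and 71.98 and 73.6 FPKM in N 1 and N 2, against 4.17, 6.60, 7.03 and 8.62 FPKM in CD152 1, 3, 4 and 6 and 1.11 FPKM in N 3. Spic, the factor that red pulp macrophages need, was at 15.5 to 22.9 against 0.196 to 2.90 FPKM, Vcam1 at 60.8 to 68.1 against 0.978 to 9.95 FPKM and C1qa, a complement subunit, at 61.3 to 68.9 against 1.48 to 16.3 FPKM (lymphocyte-rich against macrophage-like). Hmox1, which degrades heme and is not restricted to these cells, differed least, with 123 to 138 FPKM in lymphocyte-rich libraries and 61.3 to 70.2 FPKM in macrophage-like libraries. All 5 marginal zone macrophage genes were likewise higher in every lymphocyte-rich library, for example Marco at 7.13 to 10.1 against 0.0346 to 0.224 FPKM.

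Markers of other macrophage and monocyte types were low or split in the macrophage-like class. Gata6, the factor of peritoneal macrophages, was listed at 0 in all 5, and Car4 of alveolar macrophages in all 9. Of 8 monocyte genes 7 were more than 2-fold higher in lymphocyte-rich libraries, where 18.9% of all genes were. Among them was Ccr2 (12.9 to 15.3 against 0.464 to 2.06 FPKM, lymphocyte-rich against macrophage-like). Cx3cr1, the fractalkine receptor, was higher in macrophage-like libraries (3.68 to 5.30 against 54.3 to 61.4 FPKM, in the same order). Of the osteoclast list Dcstamp, a fusion protein, and Atp6v0d2, a proton pump subunit, were higher in macrophage-like libraries (0 to 0.0437 against 4.80 to 5.12 FPKM and 0.0348 to 0.150 against 5.88 to 7.33 FPKM), whereas Acp5 and Mmp9 were lower there and Calcr was listed at 0 in all 9. The macrophage-like class thus held the general macrophage genes with few markers of a named tissue macrophage, and it is called macrophage-like only for Lyz2, Csf1r and the macrophage list.

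Lipid-associated macrophage genes held the largest difference toward the macrophage-like class. Spp1, which encodes osteopontin, was at 0.246 and 0.310 FPKM in CD152 2 and 5 and 0.316 and 0.210 FPKM in N 1 and N 2, against 889, 891, 856 and 831 FPKM in CD152 1, 3, 4 and 6 and 943 FPKM in N 3. Its difference of -10.16 on the log2 scale was the largest of the 11436 genes in that direction. Trem2, a lipid receptor of macrophages, was at 0.0193 to 0.0458 FPKM in lymphocyte-rich libraries and 62.6 to 70.8 FPKM in macrophage-like libraries, Gpnmb, a glycoprotein of lysosomes and melanosomes, at 0.0134 to 0.166 against 42.8 to 74.8 FPKM, and Lpl, lipoprotein lipase, at 3.67 to 7.86 against 197 to 354 FPKM. Apoe, the apolipoprotein that such macrophages usually make in abundance, went the other way with 131 and 121 FPKM in CD152 2 and 5 and 152 and 144 FPKM in N 1 and N 2, against 11.2, 20.1, 22.4 and 25.9 FPKM in CD152 1, 3, 4 and 6 and 4.51 FPKM in N 3. In all, 7 of 13 members were more than 2-fold higher in the macrophage-like class and 3 (Apoe, Fabp4 and Abca1) more than 2-fold higher in the lymphocyte-rich class. Over all genes, 16.5% and 18.9% passed 2-fold in these directions. The summed list was at 1853 to 2053 FPKM in macrophage-like and 7287 to 8223 FPKM in context libraries. Lysosome genes (2514 to 2662 and 3419 to 3670 FPKM) and inflammatory chemokines (209 to 235 and 938 to 1086 FPKM) were higher in context libraries too. The macrophage list was lower there (3543 to 3944 and 2437 to 2656 FPKM).

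Lysosome genes were moderately higher in the macrophage-like class. Of 22 members 11 were more than 2-fold higher there, where 16.5% of all genes were, with a list median of -1.10. Ctsl, the protease cathepsin L, was at 9.46 and 10.1 FPKM in CD152 2 and 5 and 6.42 and 10.8 FPKM in N 1 and N 2, against 219, 199.7, 201 and 192 FPKM in CD152 1, 3, 4 and 6 and 221 FPKM in N 3. Lamp1, a membrane protein of lysosomes, was at 80.9 to 85.1 against 249 to 270.3 FPKM and Cd63, a tetraspanin of late endosomes, at 5.26 to 5.98 against 81.5 to 90.9 FPKM (lymphocyte-rich against macrophage-like). Against this direction, 2 members were more than 2-fold higher in the lymphocyte-rich class, Ctsh (cathepsin H) most of all, with 71.4 to 82.02 FPKM in lymphocyte-rich libraries and 1.80 to 21.8 FPKM in macrophage-like libraries.

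Receptors and mediators of inflammation were divided gene by gene. Ccl3, a chemokine of activated macrophages, was at 6.06 and 7.89 FPKM in CD152 2 and 5 and 11.1 and 8.15 FPKM in N 1 and N 2, against 105, 107, 99.5 and 97.8 FPKM in CD152 1, 3, 4 and 6 and 115 FPKM in N 3. Ccl9 was at 3.66 to 4.01 against 56.8 to 64.3 FPKM, Tlr2 at 3.97 to 4.85 against 33.3 to 37.3 FPKM and Tnf at 3.98 to 4.73 against 21.6 to 23.8 FPKM (lymphocyte-rich against macrophage-like). Il1b, by contrast, was at 36.7 and 34.4 FPKM in CD152 2 and 5 and 51.6 and 34.9 FPKM in N 1 and N 2, against 16.3, 24.1, 25.7 and 36.04 FPKM in CD152 1, 3, 4 and 6 and 2.49 FPKM in N 3. CD152 6 lay within the lymphocyte-rich range and N 3 far below it. Arg1 and Il6 stayed below 0.5 FPKM in all 9 libraries. Tlr9, the receptor for DNA that B cells use, was at 15.4 to 30.03 FPKM in lymphocyte-rich libraries and 2.51 to 3.23 FPKM in macrophage-like libraries.

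**Figure D4:**
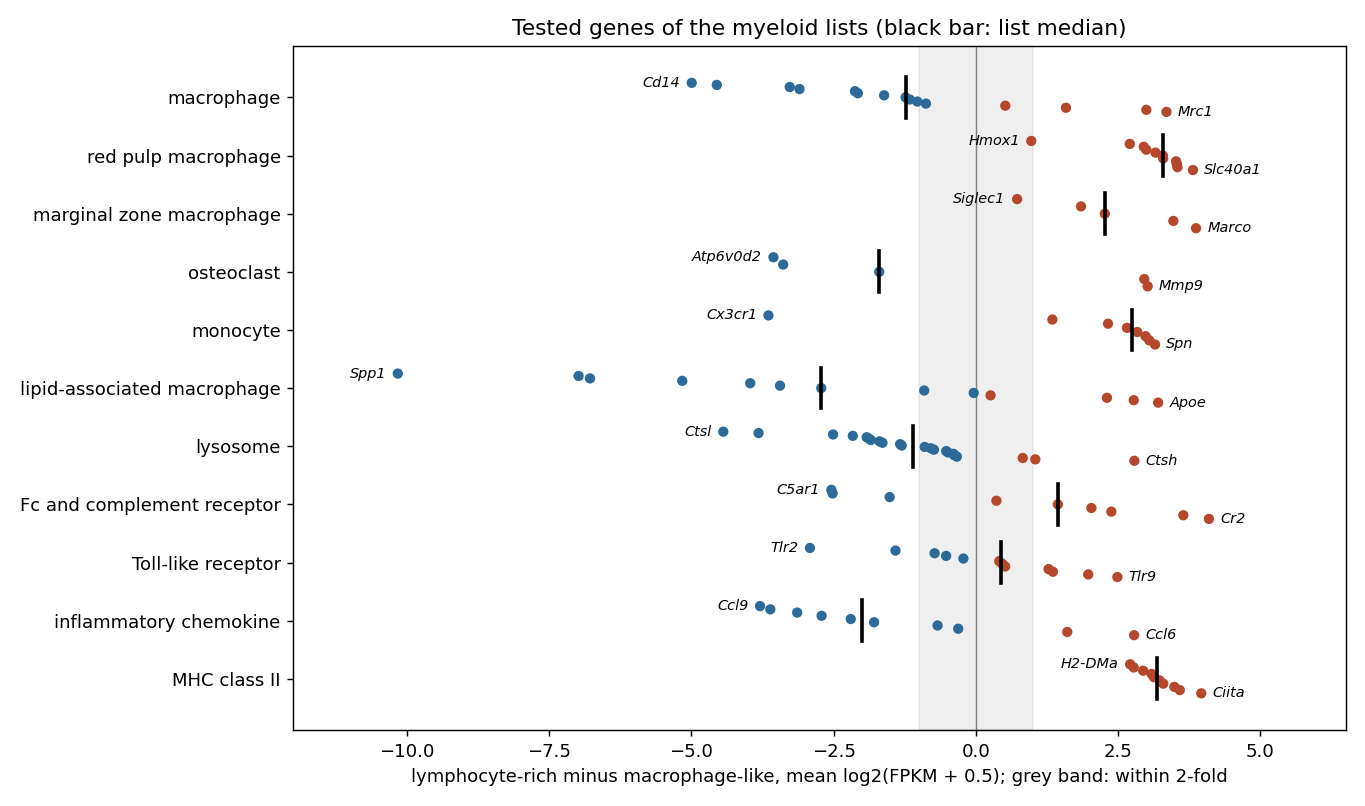
Difference between the classes (lymphocyte-rich minus macrophage-like, mean log2(FPKM + 0.5)) for each tested gene of 11 myeloid lists, with black bars at list medians, a grey band for 2-fold and the lowest and highest gene named. Red pulp, marginal zone and MHC class II genes lie right of 0, while the macrophage, lysosome and lipid-associated lists reach from Spp1 at -10.16 to Mrc1 at 3.35.

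Myeloid transcription factors are given by their values. Mitf, a regulator of lysosome and osteoclast genes, was at 0.850 and 0.276 FPKM in CD152 2 and 5 and 0.227 and 0.234 FPKM in N 1 and N 2, against 15.5, 15.2, 16.98 and 17.7 FPKM in CD152 1, 3, 4 and 6 and 20.1 FPKM in N 3. Maf, a factor of resident macrophages, was at 10.3 and 8.19 FPKM in CD152 2 and 5 and 9.07 and 10.2 FPKM in N 1 and N 2, against 0.492, 0.875, 0.872 and 1.34 FPKM in CD152 1, 3, 4 and 6 and 0.151 FPKM in N 3. Cebpa was at 3.09 to 3.46 against 8.16 to 8.65 FPKM and Irf8 at 71.3 to 84.9 against 17.8 to 25.6 FPKM (lymphocyte-rich against macrophage-like). Of 14 members 4 passed 2-fold toward the macrophage-like class and 3 toward the lymphocyte-rich class, where 16.5% and 18.9% of all genes did, and with so few members nothing is read from these counts.

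Glycolysis genes were higher in every macrophage-like library without exception. For all 14 the classes did not overlap, 13 differed by more than 2-fold, and the list median was -2.76 on the log2 scale. Over all genes, 38.1% stood higher in every macrophage-like library and 16.5% passed 2-fold toward that class. Pkm, pyruvate kinase, was at 80.8 and 81.6 FPKM in CD152 2 and 5 and 116 and 88.5 FPKM in N 1 and N 2, against 1657, 1618, 1616 and 1609 FPKM in CD152 1, 3, 4 and 6 and 1800.1 FPKM in N 3. Pgk1 was at 42.1 to 50.97 against 762 to 870.4 FPKM, Aldoa at 126 to 159 against 919.7 to 1033 FPKM and Ldha, which makes lactate, at 88.97 to 109.6 against 887 to 1004 FPKM (lymphocyte-rich against macrophage-like). Gapdh was at 6.86 to 23.2 against 56.2 to 61.9 FPKM (lymphocyte-rich against macrophage-like). Several of these genes have near-identical processed pseudogenes, and how reads were shared with them was not tested.

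Cholesterol synthesis genes stood on the same side, 11 of 12 by more than 2-fold and 11 without overlap, beside 16.5% and 38.1% of all genes. Fdps, farnesyl diphosphate synthase, was at 10.7 and 9.79 FPKM in CD152 2 and 5 and 12.5 and 11.8 FPKM in N 1 and N 2, against 175, 174, 164 and 159 FPKM in CD152 1, 3, 4 and 6 and 178 FPKM in N 3. Dhcr7, a late enzyme of the pathway, was the member whose classes overlapped, at 3.27 to 6.37 and 5.21 to 8.21 FPKM. The mitochondrial share of protein-coding FPKM was 7.98 to 9.50% in lymphocyte-rich libraries and 12.04 to 13.7% in macrophage-like libraries, although no single mitochondrial gene differed by 2-fold. The median of the 13 genes was -0.32 on the log2 scale, and -0.05 without hemoglobin genes in the scaling.

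Cell cycle genes depended on N 1. Mki67, a protein of dividing cells, was at 116 and 122 FPKM in CD152 2 and 5 and 5.18 and 112 FPKM in N 1 and N 2, against 92.2, 87.9, 89.8 and 88.1 FPKM in CD152 1, 3, 4 and 6 and 99.6 FPKM in N 3. Top2a was at 49.9 and 57.3 FPKM in CD152 2 and 5 and 6.42 and 49.5 FPKM in N 1 and N 2, against 96.9, 100.5, 96.4 and 91.97 FPKM in CD152 1, 3, 4 and 6 and 101 FPKM in N 3. Of 20 members 9 were more than 2-fold higher in the macrophage-like class with all libraries, beside 16.5% of all genes, and 1 without N 1. Dividing-cell transcripts were thus high in both classes apart from N 1.

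Erythroid transcripts made up the largest differences on the lymphocyte-rich side, carried by 3 of its libraries. Hba-a1, an alpha globin, was at 20149.9 and 23846 FPKM in CD152 2 and 5 and 759 and 24295 FPKM in N 1 and N 2, against 127, 194, 205 and 272 FPKM in CD152 1, 3, 4 and 6 and 27.8 FPKM in N 3. Hemoglobin genes took 21.3 to 22.9% of protein-coding FPKM in CD152 2, CD152 5 and N 2, 0.842% in N 1 and 0.0371 to 0.371% in macrophage-like libraries. Slc4a1, the anion exchanger of erythrocytes, was at 534 and 545 FPKM in CD152 2 and 5 and 1.19 and 573 FPKM in N 1 and N 2, against 2.88, 4.44, 4.60 and 6.62 FPKM in CD152 1, 3, 4 and 6 and 0.541 FPKM in N 3. In N 1 it lay within the macrophage-like range, so the classes did overlap for this gene.

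Neutrophil genes were also uneven. S100a9, a granulocyte protein, was at 231 and 228 FPKM in CD152 2 and 5 and 128 and 246 FPKM in N 1 and N 2, against 87.9, 129, 139.7 and 184 FPKM in CD152 1, 3, 4 and 6 and 15.7 FPKM in N 3. The granule gene Ngp was at 73.7 and 74.2 FPKM in CD152 2 and 5 and 2.88 and 78.3 FPKM in N 1 and N 2, against 11.7, 18.2, 21.3 and 26.4 FPKM in CD152 1, 3, 4 and 6 and 1.62 FPKM in N 3, with N 1 near N 3. For both genes N 1 lay within the macrophage-like range. Retnlg, of mature neutrophils, was at 39.7 to 51.8 against 0.192 to 2.45 FPKM (lymphocyte-rich against macrophage-like) and did not overlap. Stromal and endothelial genes were low throughout, with summed levels of 5.93 to 14.03 FPKM in lymphocyte-rich libraries and 0.502 to 0.924 FPKM in macrophage-like libraries for reticular stroma. Of the melanocyte list, fixed because the protocol fields describe melanoma, no member reached the level for testing. Tyr and Dct, the pigment enzymes, were listed at 0 in all 9 libraries, and Pmel was at 1.05 to 1.97 FPKM in lymphocyte-rich libraries and 0.0188 to 0.143 FPKM in macrophage-like libraries.

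The largest differences on the lymphocyte-rich side among genes without overlap included Hba-a1, Alas2, Hba-a2, Fam46c, Hbb-bt, Hbb-bs, Rsad2, Nxpe2 and Ablim1, between 6.21 and 4.80 on the log2 scale. Alas2 was at 534 and 542 FPKM in CD152 2 and 5 and 16.6 and 600.2 FPKM in N 1 and N 2, against 2.58, 3.19, 3.49 and 4.64 FPKM in CD152 1, 3, 4 and 6 and 0.886 FPKM in N 3. Hemoglobin genes are near-identical copies, so reads can be split between them. Rsad2, the antiviral protein viperin, was at 119.7 and 120.1 FPKM in CD152 2 and 5 and 4.19 and 133 FPKM in N 1 and N 2, against 0.920, 1.25, 1.80 and 1.69 FPKM in CD152 1, 3, 4 and 6 and 0.543 FPKM in N 3. In 8 of these 9 genes N 1 was the lowest lymphocyte-rich library, and the exception was Ablim1, an actin-binding protein gene, at 58.4 and 53.5 FPKM in CD152 2 and 5 and 103 and 52.5 FPKM in N 1 and N 2. Of 15 interferon-stimulated genes 8 were more than 2-fold higher in the lymphocyte-rich class and 4 in the macrophage-like class. Over all genes, 18.9% and 16.5% were, and nothing is read from the 4.

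The 10 largest on the macrophage-like side were Spp1, Fxyd2, Lyz1, Mycn, Cldn11, Trem2, Slco4a1, Gpnmb, Eif2s3y and Slc6a12, between -10.16 and -6.18. Fxyd2, a regulator of the sodium pump known from kidney, was at 0.423 and 0.293 FPKM in CD152 2 and 5 and 0.148 and 0.511 FPKM in N 1 and N 2, against 406, 395, 405 and 403 FPKM in CD152 1, 3, 4 and 6 and 448 FPKM in N 3. Lyz1, at 1.32 to 2.47 FPKM in lymphocyte-rich libraries and 871 to 1026 FPKM in macrophage-like libraries, is a near-identical copy of Lyz2, so reads of one can be counted for the other. Mycn, a MYC family transcription factor of embryonic and neural cells, was at 0.0539 and 0.0935 FPKM in CD152 2 and 5 and 0.0427 and 0.143 FPKM in N 1 and N 2, against 156, 153, 152 and 152 FPKM in CD152 1, 3, 4 and 6 and 168 FPKM in N 3. Cldn11, a tight junction protein of myelin and testis, was at 0 to 0.000800 FPKM in lymphocyte-rich libraries and 63.6 to 71.1 FPKM in macrophage-like libraries, and Slco4a1, an organic anion transporter, at 0.211 to 1.43 FPKM in lymphocyte-rich libraries and 101 to 115 FPKM in macrophage-like libraries. For these genes the 5 macrophage-like libraries lay close together. Cdkn1a, the cell cycle inhibitor p21, was named after its values were seen, at 1.30 to 1.79 FPKM in lymphocyte-rich libraries and 106 to 118 FPKM in macrophage-like libraries.

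Among the macrophage-like libraries many spleen cell genes kept one order, though not those of every list. N 3 was lowest and CD152 6 highest for 17 of 18 T cell genes, 17 of 18 B cell genes, 11 of 12 natural killer and cytotoxic genes, 10 of 10 MHC class II genes, 9 of 11 red pulp macrophage genes and 9 of 10 mature neutrophil genes. In other lists the counts were 4 of 8 plasma cell genes, 4 of 8 conventional dendritic cell genes, 2 of 6 megakaryocyte and platelet genes, 2 of 5 endothelial genes, 1 of 5 marginal zone macrophage genes and 1 of 7 reticular stroma genes. The mitochondrial genome, which no spleen cell type defines, had it for 12 of 13 genes. Over all 11436 genes this order held for 1796 (15.7%), over the 2156 genes more than 2-fold higher in lymphocyte-rich libraries for 1137 (52.7%) and over the 1883 on the other side for 17 (0.903%). Of those 1883 genes N 3 was the highest library for 1194 (63.4%).

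Summed levels gave the size of this order. Levels are given as a percent of the lymphocyte-rich median, and the T cell list includes Cd3e. The T cell list was at 8.29%, 12.3%, 13.5% and 18.2% in CD152 1, 3, 4 and 6 and 1.85% in N 3. The B cell list was at 15.4%, 20.3%, 21.3% and 26.1% in CD152 1, 3, 4 and 6 and 8.38% in N 3. The erythroid list was at 0.751%, 1.16%, 1.19% and 1.61% in CD152 1, 3, 4 and 6 and 0.156% in N 3, and the mature neutrophil list at 30.6%, 46%, 47.9% and 64.5% in CD152 1, 3, 4 and 6 and 5.75% in N 3. The lists thus kept different proportions: mature neutrophil genes were nearest to their lymphocyte-rich level in CD152 6 and erythroid genes farthest from it.

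**Figure D5:**
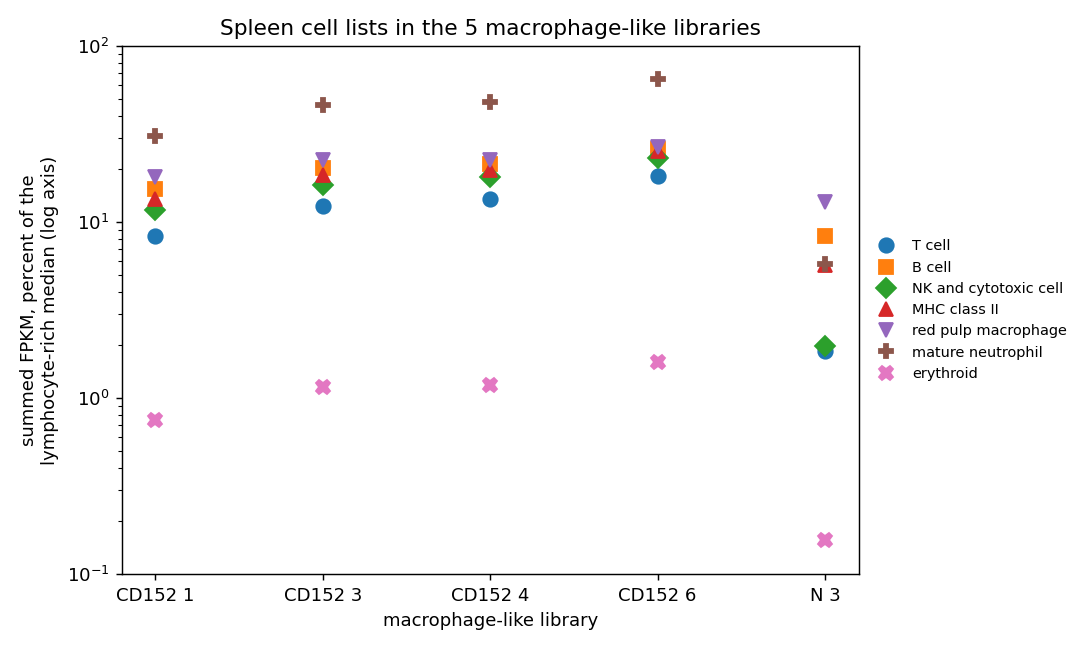
Summed FPKM of 7 gene lists in the 5 macrophage-like libraries, as a percent of the median of the 4 lymphocyte-rich libraries (log axis). Every list is lowest in N 3 and highest in CD152 6, with T cell genes at 1.85% and 18.2%.

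Within the lymphocyte-rich class N 1 stood apart from CD152 2, CD152 5 and N 2. Against their mean, 231 genes were more than 2-fold higher and 767 more than 2-fold lower in N 1, whereas for N 2 against CD152 2 and 5 the counts were 10 and 14. Genes lower in N 1 were led by Slc4a1 and other erythroid genes. Genes higher in N 1, picked after their values were seen, included Rpl29 (303 FPKM in N 1 and 7.62 to 9.66 FPKM in the 3 others), Rps18 (983 and 78.2 to 88.7 FPKM) and Ly6a, the stem cell antigen Sca-1 (91.5 and 9.55 to 14.2 FPKM), and the ribosomal protein genes among them have many pseudogene copies. N 3 against the 4 other macrophage-like libraries had 7 genes more than 2-fold higher and 413 more than 2-fold lower.

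Treatment was then compared with class kept in view, to ask whether LPPC/mp/CD152 differed from Naive beyond the class of the libraries. Taken without regard to class, no gene passed an adjusted p of 0.05 (limma with Benjamini-Hochberg adjustment, 4 groups, all 18 libraries, 0.0% of 11436), and 506 had an unadjusted p under 0.05. Ctla4 differed by 0.01 ± 0.53 on the log2 scale (SE, LPPC/mp/CD152 minus Naive; limma adjusted p = 0.993). The 5 smallest p-values were those of Tmem9b, G0s2, Gm10031, Hist1h1d and Hist1h4n, all at an adjusted p of 0.618. G0s2, an inhibitor of lipolysis, was at 6.14, 3.35, 7.92, 7.22, 3.05 and 11.2 FPKM in CD152 1 to 6, against 2.63, 2.76 and 0.352 FPKM in N 1 to N 3 (1.64 ± 0.40 on the log2 scale, SE). Without N 3, which left Naive with lymphocyte-rich libraries only, 3830 genes passed, and with limma's sample weights 6820 passed. With class as an added term and all 18 libraries, 0 genes passed, and 1618 had an unadjusted p under 0.05 (limma).

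Within the lymphocyte-rich class, 11 genes were higher (0.0962% of genes tested) and 49 lower (0.428%) in LPPC/mp/CD152 than in Naive libraries, 2 against 2 (limma, 6 groups of treatment and class). Dab2, an endocytic adaptor, was at 0.0382 and 0.0437 FPKM in CD152 2 and 5, against 0.459 and 0.303 FPKM in N 1 and N 2 (-0.70 ± 0.08 on the log2 scale, SE, limma adjusted p = 0.00191). All 4 values lay below the 0.5 FPKM set for testing, which the gene met through other libraries, such as the macrophage-like ones at 28.6 to 34.4 FPKM. Nothing is therefore read from the p-value of Dab2. Of the 49 lower genes 30 had all macrophage-like libraries above all lymphocyte-rich ones, where 38.1% of all genes did. Ndrg2, Kctd9 and Sh3pxd2b were also among the 5 smallest p-values. Sh3pxd2b was near that limit, at 0.453 and 0.276 FPKM in CD152 2 and 5 and 0.685 and 0.831 FPKM in N 1 and N 2. Ndrg2 was low too, at 1.015 and 0.977 FPKM in CD152 2 and 5 and 1.82 and 1.55 FPKM in N 1 and N 2. In N 3 they were at 10.97 and 73.1 FPKM, and nothing is read from their p-values either. The count moved to between 4 and 4788 when single libraries were left out, to 4788 without N 2 and to 32 without N 1, and to 3 with median-of-ratios scaling.

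With Cd3e left aside, no member of the T cell, B cell, MHC class II, red pulp macrophage or erythroid lists passed in the lymphocyte-rich class. Neither did Ctla4 (0.27 ± 0.18 on the log2 scale, limma adjusted p = 0.364) or Lyz2 (-0.10 ± 0.06, limma adjusted p = 0.300). Of the lysosome list 1 of 22 members was lower in LPPC/mp/CD152 libraries. Over all genes only 0.0962% were higher and 0.428% lower, so nothing is read from these counts or from lists without a call. N 1 and N 2 differed from each other far more than CD152 2 and 5 did, as their hemoglobin share of 0.842 and 22.9% shows.

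Within the macrophage-like class, 432 genes were higher (3.78%) and 9 lower (0.0787%) in the 4 LPPC/mp/CD152 libraries than in N 3, the only Naive library of the class, whose spread was taken from the other groups. With a single Naive library, a difference of treatment and a property of N 3 cannot be told apart, and N 3 was the lowest of the 5 libraries for all 432 higher genes. A fit of the 9 libraries alone called 147 genes in place of 441. In the fit of all 18 libraries, median differences (LPPC/mp/CD152 minus N 3, log2 scale) were 2.39 for B cell and 2.49 for MHC class II genes. They were 1.88 for red pulp macrophage genes, 1.28 for mature neutrophil genes and 1.84 for the T cell list, which holds Cd3e. The macrophage list was at -0.11, glycolysis genes at -0.14 and all tested genes at -0.01. Ctla4 differed by 1.17 ± 0.20 on the log2 scale (SE, limma adjusted p = 0.00296). Nearly all of the higher genes had every lymphocyte-rich library above every macrophage-like one, where 34.3% of all genes did.

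Among the genes with the smallest p-values were G0s2 (6.14, 7.92, 7.22 and 11.2 FPKM in CD152 1, 3, 4 and 6, against 0.352 FPKM in N 3), Slamf6, Aamp and Mzb1. Slamf6, a receptor of T and B cells, was at 3.83, 3.77, 5.005 and 4.75 FPKM, against 0.0665 FPKM in N 3 (3.08 ± 0.24, SE, limma adjusted p = 2.04e-05). The median difference of the macrophage list was -0.11 on the log2 scale, with N 3 as the only Naive library. Among the genes that mark the class, Lyz2 differed by -0.12 ± 0.06 (limma adjusted p = 0.559), Csf1r by -0.11 ± 0.10 (limma adjusted p = 0.792), Spp1 by -0.12 ± 0.08 (limma adjusted p = 0.681) and Trem2 by -0.12 ± 0.12 (limma adjusted p = 0.845). Median differences were -0.14 for glycolysis, -0.11 for cholesterol synthesis and -0.08 for cell cycle genes, beside -0.01 over all tested genes.

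The difference between the 2 treatment effects was tested as an interaction, which asks for each gene whether LPPC/mp/CD152 minus Naive differed between lymphocyte-rich and macrophage-like libraries. It was above 0 for 26 genes (0.227%) and below 0 for 476 (4.16%). Of the 432 genes higher in LPPC/mp/CD152 within the macrophage-like class 355 were among the 476, which is 82.2% of the first list and 74.6% of the second, and both tests use N 3. No test is given for Cd3e, which divided the classes. Ctla4 differed by -0.90 ± 0.27 on the log2 scale (SE, limma adjusted p = 0.0856). Aamp, G0s2, Ccl5 and Mzb1 were among the 5 smallest p-values. Without N 2 the count was 4250, without CD152 2 it was 271 and without CD152 5 it was 289, and the fit of the 9 libraries alone called 2 genes.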

How the data were processed

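RNA of splenocytes was sequenced in 18 libraries. The authors deposited 1 table per library with FPKM, coverage and a column headed TPM for each reference gene and for assembled loci. Aligner and quantifier: not given in the sources used here. The submitters' processing notes name mm10 and GATK 4.2. FPKM as deposited by the authors was used for 47729 reference genes (mouse Ensembl identifiers), and rows that share an identifier were summed. Deposited coverage signal served only to derive aligned gigabases from its ratio to FPKM. The assembled loci and the column headed TPM were not used. FPKM depends on the whole composition of a library, so a share taken by hemoglobin lowers all other genes.

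Of 47224 genes with a type in GENCODE M21, 21620 were protein-coding, and the 11436 that averaged 0.5 FPKM or more across 18 libraries were compared on log2(FPKM + 0.5). Libraries were divided at 40 FPKM of Cd3e. The classes were described by differences of mean log2 values and by overlap, without a test. LPPC/mp/CD152 was compared with Naive by limma 3.58.1 in R 4.3.3 with Benjamini-Hochberg adjustment at 0.05: over 4 groups, then over treatment by class, with the interaction as the difference of both effects. The values carry no counts, so no counting intervals are given, and the number of libraries limits the precision. On simulated data, the test over 4 groups recovered 79% of genes simulated with a log2 difference of 2 between LPPC/mp/CD152 and Naive. The simulation gave each gene the same spread in every library. A library as far from its class as N 1 was not simulated, so recovery in these data may be lower.

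The 43 gene lists held 473 genes, of which 472 were found. The class division and the lists were chosen with earlier results of these data known. Genes are named if they are markers or Ctla4, among the 10 largest differences without overlap in each direction, among the most abundant or described members of a list, among the 5 smallest p-values of a treatment test, Y-linked, or Xist, and others are said to be picked after their values were seen. Some genes that the rule names are not reported here. Alternatives were another pseudocount, no filter, other scalings, the 9 libraries alone, sample weights, a class term, a replicate block and leaving out each library. Leaving out N 1 and N 3 together was chosen after seeing the data.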

Additional observations from a re-analysis of the deposited data

Results flagged for a closer look

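A library far from the others of its group was sought in 29 summary measures. The groups were each class of 4 or 5 libraries and the 6 LPPC/mp/CD152 libraries, and context libraries were not examined. Of 87 pairs of group and measure, 16 held such a library. Chance alone flags about 1 in 20 pairs of independent measures. These measures are not independent, the T cell sum holds Cd3e, and the LPPC/mp/CD152 group spans both classes. Nothing is therefore read from 16 beside that rate. Nearly all of them were the same library: N 1 was far from CD152 2, CD152 5 and N 2 in 15 measures.

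Its composition differed first. Hemoglobin genes took 0.842% of protein-coding FPKM in N 1, against 21.3 to 22.9% in the 3 others, and the 20 most abundant genes took 14.8%, against 31.9 to 33.6%. Mitochondrial genes took 9.50% in N 1, against 7.98 to 8.03%. Immunoglobulin genes took 3.79% of the FPKM of all reference genes, against 6.93 to 7.10%, and T cell receptor genes 0.392%, against 0.202 to 0.209%.

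Cell type lists in N 1 differed in both directions. Summed FPKM was 935 for T cell genes (590 to 636 in the 3 others), 2602 for B cell genes (2012 to 2076), 333 for NK and cytotoxic genes (220 to 234) and 592 for macrophage genes (513 to 522). It was 17.7 for peritoneal macrophage genes (13.5 to 13.7), 31.9 for alveolar macrophage genes (25.2 to 25.5) and 95.0 for osteoclast genes (70.5 to 73.2). Lower sums in N 1 were those of plasma cell genes with 279 (812 to 904), neutrophil precursor genes with 12.4 (144 to 149) and erythroid genes with 2520.25 (72547 to 84199). The NK and cytotoxic sum holds Klrb1c, at 16.3 FPKM in N 1 and 2.04 to 2.34 FPKM in the 3 others. The parts that the low hemoglobin share of N 1 and a difference of strain have in these values were not tested.

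Among macrophage-like libraries, CD152 6 stood apart in the summed FPKM of megakaryocyte and platelet genes, with 4.86, against 3.40 to 3.81 in the 4 others.

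The effect of LPPC/mp/CD152 against Naive differed between lymphocyte-rich and macrophage-like libraries for 502 genes by the interaction term (limma, adjusted p under 0.05). N 3 is the only Naive library in the macrophage-like class, so this difference and a property of N 3 cannot be told apart.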

How the results depend on the processing

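The class difference kept its counts within 1.5 times under every alternative except a 4-fold limit, which left 1012 genes higher in lymphocyte-rich and 575 higher in macrophage-like libraries. Leaving out single libraries gave 2104 to 2204 and 1825 to 1958 genes at 2-fold, and 3970 to 4424 and 4405 to 4855 without overlap. Without hemoglobin genes in the scaling, 65.6% of 2-fold genes were higher in the lymphocyte-rich class, beside 53.4%. Of 525 values of 25 named genes under the alternatives, 479 moved by less than the spread between libraries, 46 moved by more and 0 reversed.

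For LPPC/mp/CD152 against Naive (0 genes), leaving out single libraries gave 0 to 3830 genes: 4 without N 2 and 3830 without N 3. Sample weights gave 6820, and leaving out N 1 and N 3 together gave 2. Within the lymphocyte-rich class (60 genes), the count was 301 with no filter, 18 with TPM-like scaling, 3 with median-of-ratios scaling, 9 without hemoglobin genes, 1 with the 9 libraries alone, 0 with sample weights and 32 without N 1 and N 3. Single libraries left out gave 4 to 4788. Within the macrophage-like class (441 genes), the 9 libraries alone gave 147 and sample weights 685, and single libraries left out gave 389 to 643. For the interaction (502 genes), these gave 2 and 0, and single libraries left out gave 271 to 4250. Without N 3 neither the macrophage-like comparison nor the interaction has a value. The causes were not tested. Estimation of the sample weights did not fully converge, so those counts are weak.

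Libraries with the same number in both groups did not deviate together in every pair (correlations of -0.642, 0.885 and 0.906). The sign of each correlation followed the classes, so this check cannot tell whether libraries with the same number were paired. A fit with the replicate number as a block called 0 genes, with 211 at an unadjusted p under 0.05. Not every library correlated best with its own number. Aligned sequence of 5.21 to 7.92 gigabases per library limits low genes, whose differences the added 0.5 FPKM understates.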
